A study of Mus musculus with 6 samples.

Results

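The potassium, sodium and chloride channel genes described here are the protein-coding mouse genes whose symbols begin with Kcn, Clcn, Clic or Lrrc8, or with Scn and a digit, together with *Ano5*, *Ano6*, *Ano10*, *Trpm7* and *Piezo1*. Of 132 such genes in the annotation, 46 were in the table of 12353 genes, and the other 86 were not analysed here. The values came from polyadenylated RNA of the gastrocnemius, a calf muscle, of 3 Nogo-/- mice and 3 Nogo+/+ mice, with 1 library per mouse. The Nogo-/- mice carry a knockout of *Rtn4*, the gene of the Nogo proteins, and the Nogo+/+ mice carry its wild-type form. No treatment was named for these muscles, and age, sex and strain of the sequenced mice were not given in the sources used here. Levels are in FPKM, the number of sequenced fragments of a gene divided by transcript length and by library depth, so that genes can be compared per length. Libraries are named by their numbers in the table, and values are listed in the order of Samples 4, 5 and 6 for Nogo-/- and of Samples 1, 2 and 3 for Nogo+/+.

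A skeletal muscle fiber fires an action potential when voltage-gated sodium channels open, and it repolarizes through delayed-rectifier potassium channels and, to a large part, through a chloride conductance that also keeps the resting membrane stable. Inward rectifiers hold the resting potential near that of potassium and recover potassium from the transverse tubules. Channels gated by ATP, by calcium, by swelling or by stretch tie the membrane to the metabolic and mechanical state of the fiber, and some of the genes also serve vessels, nerves and other cells of the muscle.

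As a check of the knockout, *Rtn4* was at 0.423, 0.312 and 0.368 FPKM in Nogo-/- muscle, against 414, 429 and 425 FPKM in Nogo+/+ muscle. The depth, read from the low values of genes with 1 transcript, was 13784000 to 14482000 fragments in the Nogo-/- libraries and 13518000 to 14446000 in the Nogo+/+ libraries. The 8 skeletal fiber markers were high in every library, with sums of 18736 to 19489 FPKM. These sums do not show single markers. The mean of *Tcap* was 2272 FPKM in Nogo-/- muscle and 1565 FPKM in Nogo+/+ muscle, and that of *Mb* was 1669 and 1738 FPKM. *Tcap* was called higher and *Mb* lower, with adjusted p of 0.00030 and 0.0056 in limma, and the other 6 did not pass. The FPKM of *Mb* overlapped between the groups, at 1734, 1645 and 1627 in Nogo-/- muscle and 1739, 1761 and 1715 in Nogo+/+ muscle. Its fitted difference of -0.15 came after the quantile normalization described below, whose part in this call was not tested. Of the 10 skin keratinocyte markers, none passed in limma, adjusted or unadjusted, and their summed level was 6.73, 13.1 and 241 FPKM in Nogo-/- muscle, against 6.54, 17.0 and 6.35 FPKM in Nogo+/+ muscle, so Sample 6 stood apart. Each mouse gave 1 library, so the p-values below weigh a difference between the groups against the spread between these few mice. In limma that spread is drawn toward a trend over all genes. An exact permutation test of 3 against 3 could not go below p = 0.1.

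A total of 5 of the 46 channel genes (10.9%) differed at an adjusted p under 0.05 in limma, where 4.64% of all genes in the table did. The level of *Kcna5* and *Lrrc8a* rose in Nogo-/- muscle (2 of 46, against 1.89% of all genes called higher), and among those that fell were *Kcnj11* and *Kcnma1* (3 of 46, against 2.75% of all genes called lower). When 1 library was left out, 2 to 4 of the 46 passed, and 3 without Sample 6. The other 41 did not pass, and no channel gene had a fitted log2 fold change beyond 1 in either direction. The summed FPKM of all 46 was 1044, 1101 and 1082 in Nogo-/- muscle and 1077, 1064 and 1079 in Nogo+/+ muscle, so the groups overlapped in the total. The median log2 fold change was -0.05 over the 46 genes and -0.01 over all genes, and 27 of the 46 lay below 0, or 24 without quantile normalization of the libraries. With quantile normalization, 6434 of all 12353 genes lay below 0. In all, 16 channel genes (34.8%) had an unadjusted p under 0.05, against 20.5% of all genes. Of these, 5 were on the higher side, where 8.91% of all genes lay, and 11 on the lower side, where 11.6% lay. The FPKM of the groups did not overlap for 15 channel genes (32.6%), against 25.9% of all genes. They were 7 on the higher side, against 15.9% of all genes, and 8 on the lower side, against 10.0% of all genes.

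**Figure D1:**
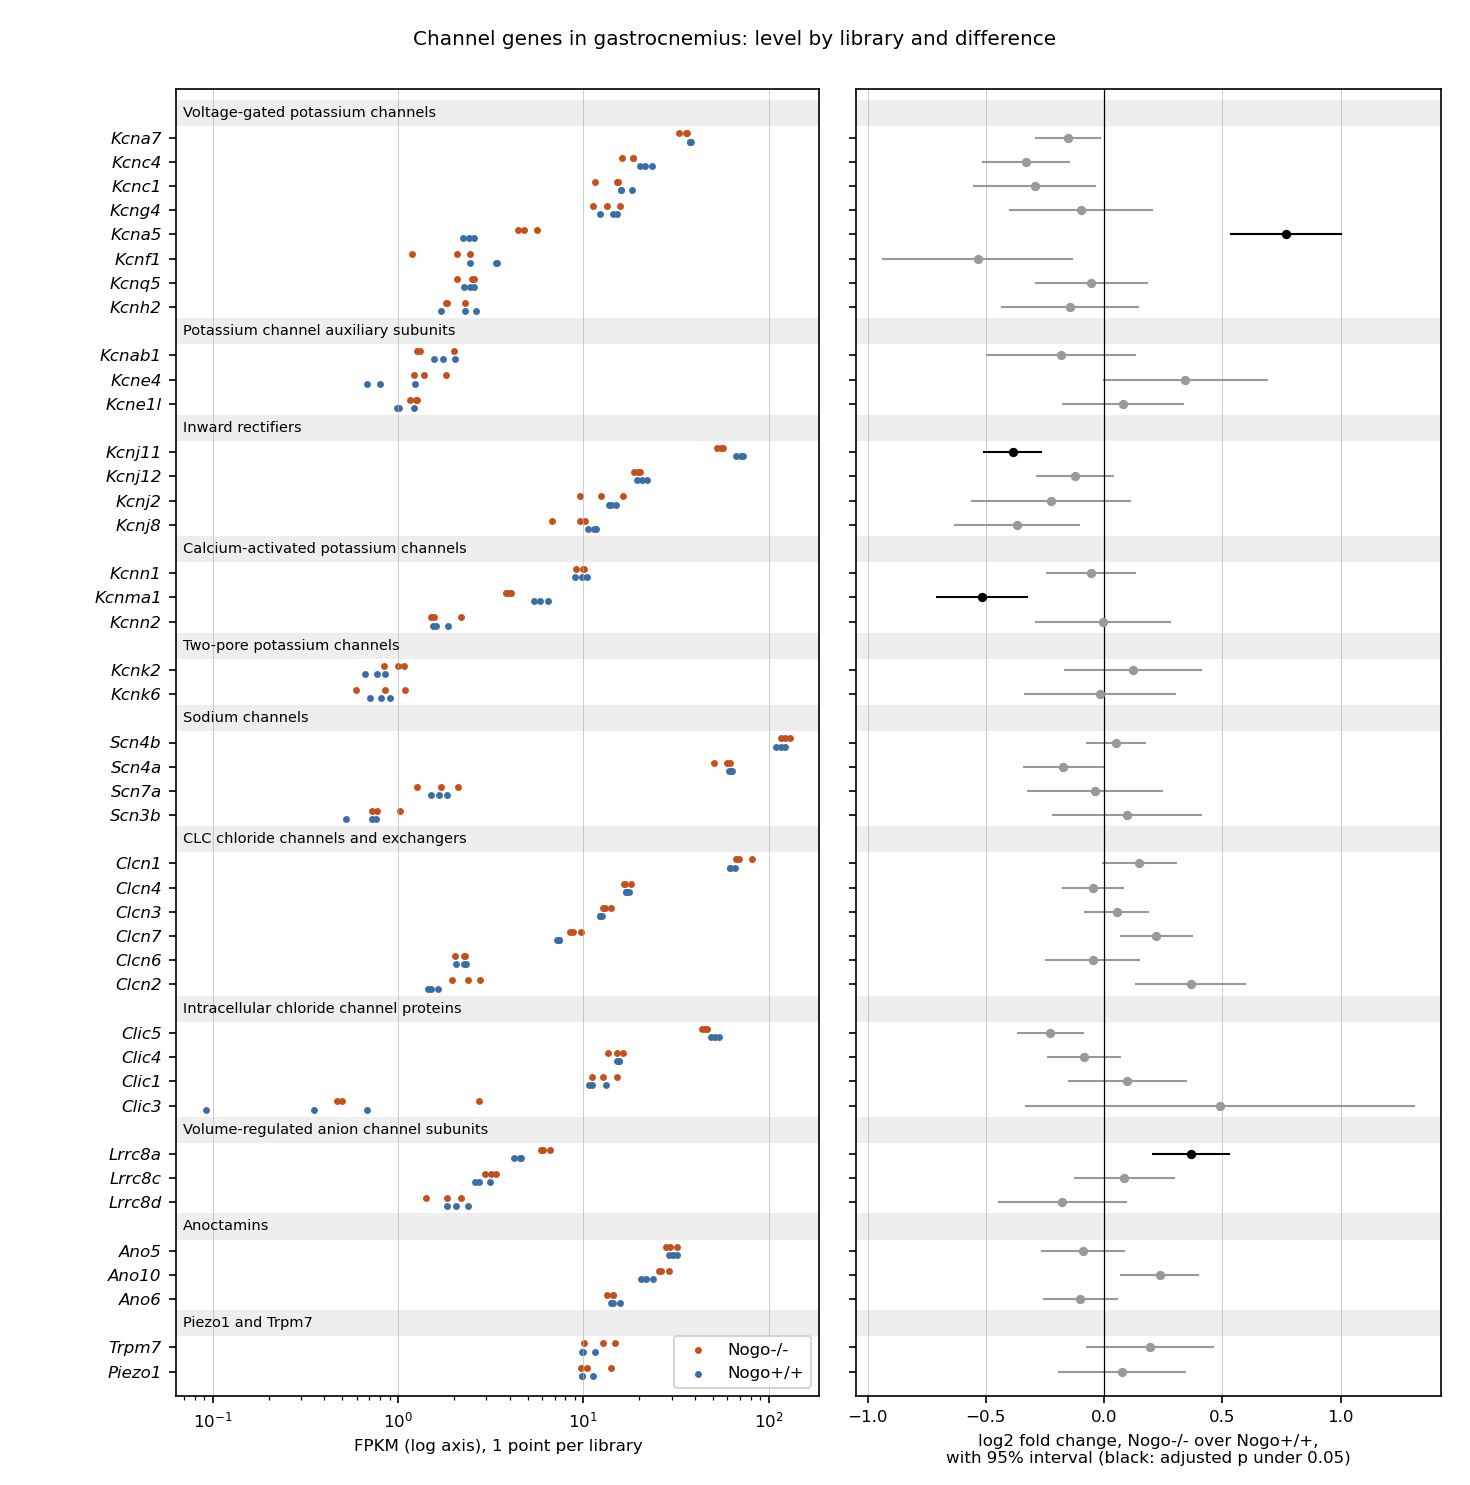
The left panel gives the FPKM of 42 channel genes on a log axis, with 1 point per library (Nogo-/- above Nogo+/+ for each gene), grouped by class and ordered by mean level. The right panel gives the fitted log2 fold change of Nogo-/- over Nogo+/+ with its 95% interval, in black for 4 genes past the adjusted threshold, of which Kcna5 lies farthest to the right at 0.77.

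The sequence before the start of the genes that rose is shown, because these are the channel genes with a promoter in the RefSeq table (build GRCm38.p6) whose RNA was higher. That table matched 38 of the 46 genes and 3 of the 5 that passed. The third, *Kcnma1*, has its window inside an annotated exon and is not printed. The stretch of *Kcna5* is chr6:126535556-126535805 on the minus strand, and that of *Lrrc8a* is chr2:30237519-30237714 on the plus strand, ending where the first annotated exon begins. Capitals mark matches on either strand to a GC box (GGGCGG) and to an E-box of the type CACGTG.
Kcna5: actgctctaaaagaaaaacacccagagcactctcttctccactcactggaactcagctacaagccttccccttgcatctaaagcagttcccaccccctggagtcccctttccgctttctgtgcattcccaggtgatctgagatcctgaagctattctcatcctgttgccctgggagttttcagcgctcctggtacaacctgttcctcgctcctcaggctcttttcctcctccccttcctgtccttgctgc
Lrrc8a: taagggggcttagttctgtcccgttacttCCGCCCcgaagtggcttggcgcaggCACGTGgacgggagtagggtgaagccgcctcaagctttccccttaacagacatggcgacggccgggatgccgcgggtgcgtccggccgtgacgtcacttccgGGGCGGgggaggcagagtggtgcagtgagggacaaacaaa

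Both strands of the 250 bases before each start were searched for 4 motifs. The GC box (GGGCGG) is in 32.7% of the 32851 promoters of the table and the first E-box (CACGTG) in 6.0%. A second E-box (CAGCTG) is in 13.0% and the TATA box (TATAAA) in 12.4%. Among the 49 promoters of channel genes, the shares were 51.0, 18.4, 24.5 and 4.1%, in the same order. No match overlapped that of another motif in the printed stretches. None of the 4 was found before *Kcna5*. The printed stretch of *Lrrc8a* holds the GC box at 2 places, once on each strand, and the first E-box at 1 place. The G and C content was 53.2% for the 250 printed bases of *Kcna5* and 64.3% for the 196 of *Lrrc8a*. In windows of 250 bases, the median was 52.4% over all promoters of the table and 60.8% over the 49 promoters of channel genes. These matches describe the letters and no more.

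Among the voltage-gated potassium channels, the pores that open on depolarization and end the action potential, 1 of 11 genes rose and 1 fell, while 9 did not pass. Of all genes, 1.89% rose and 2.75% fell. *Kcna5* (chr6:126532551-126535412, minus strand), the pore of a delayed rectifier, was at 4.81, 4.46 and 5.63 FPKM in Nogo-/- muscle, against 2.25, 2.56 and 2.42 FPKM in Nogo+/+ muscle. Every Nogo-/- library lay above every Nogo+/+ library, and the mean was 4.96 ± 0.60 FPKM in Nogo-/- muscle and 2.41 ± 0.15 FPKM in Nogo+/+ muscle (SD, n = 3 each), a ratio of 2.06. The fitted difference was 0.77 (SE 0.10) on the scale of log2(FPKM + 1), with an adjusted p of 0.0054 in limma. *Kcna5* has a single annotated transcript, so its FPKM could be turned back into whole fragments: 191, 185 and 222 in Nogo-/- muscle and 89, 99 and 100 in Nogo+/+ muscle. The call was kept when any 1 of the 6 libraries was left out.

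*Kcna7*, its relative of the same subfamily and the most abundant voltage-gated potassium channel gene of this muscle, was at 32.9, 35.8 and 36.5 FPKM in Nogo-/- muscle, against 38.2, 37.5 and 37.5 FPKM in Nogo+/+ muscle. There was no overlap between the groups, but the difference of -0.15 (SE 0.06) did not pass (adjusted p = 0.20 in limma). *Kcna5* thus made up 12.7, 11.1 and 13.4% of the summed FPKM of the pair in Nogo-/- muscle, against 5.57, 6.38 and 6.06% in Nogo+/+ muscle. *Kcna7* stayed the larger of the pair in every library.

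Of the genes that encode fast-deactivating channels for brief action potentials, *Kcnc4* came closest to the threshold. Its level was 16.2, 18.5 and 18.6 FPKM in Nogo-/- muscle, against 23.5, 20.2 and 21.5 FPKM in Nogo+/+ muscle. The groups did not overlap, and the difference of -0.33 (SE 0.08) had an adjusted p of 0.0584 in limma. The related *Kcnc1* was at 11.6, 15.3 and 15.3 FPKM in Nogo-/- muscle, against 18.3, 16.0 and 16.0 FPKM in Nogo+/+ muscle, again with no overlap but without passing the test.

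*Kcnf1* and *Kcng4* encode subunits that form no channel alone and modify other voltage-gated channels. *Kcnf1* rested on 163, 82 and 138 fragments in Nogo-/- muscle and 161, 222 and 233 in Nogo+/+ muscle, and its fitted difference of -0.53 (SE 0.18) did not pass (adjusted p = 0.14 in limma). *Kcng4*, *Kcnq5* and *Kcnh2* were at 1.71 to 15.7 FPKM in every library, overlapped between the groups and had fitted differences of -0.14 to -0.05. Together, 9 of the 11 voltage-gated genes had a log2 fold change below 0, with or without quantile normalization. With it, 6434 of all 12353 genes lay below 0. The summed FPKM of the 11 genes was 102, 109 and 113 in Nogo-/- muscle, against 118, 117 and 117 in Nogo+/+ muscle.

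The auxiliary subunits were low, and none of 3 passed in limma, adjusted or unadjusted. *Kcnab1*, a cytoplasmic beta subunit of the *Kcna* channels, was at 1.26, 2.00 and 1.31 FPKM in Nogo-/- muscle, against 1.57, 2.02 and 1.75 FPKM in Nogo+/+ muscle, with a difference of -0.18 (SE 0.14, adjusted p = 0.51 in limma). *Kcne4*, which encodes a small membrane subunit, was at 1.39, 1.81 and 1.22 FPKM in Nogo-/- muscle and 0.801, 0.683 and 1.23 FPKM in Nogo+/+ muscle. Its difference of 0.34 (SE 0.15) did not pass (adjusted p = 0.25 in limma). *Kcne1l*, of the same small family, rested on 21 to 28 fragments per library.

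**Figure D2:**
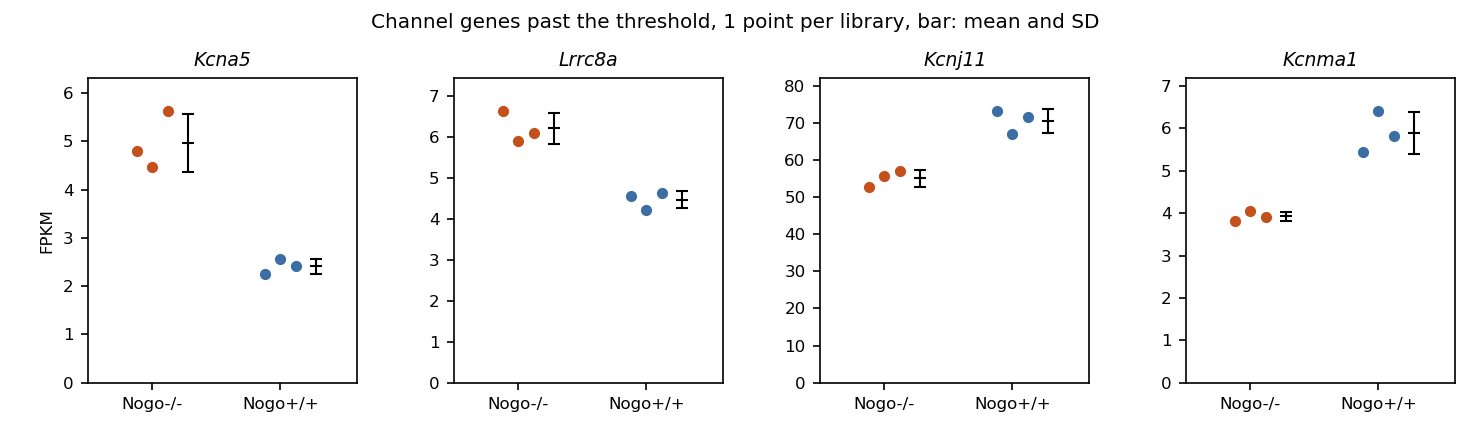
Each of 4 panels gives the FPKM of 1 channel gene past the threshold, with 1 point per library, Nogo-/- on the left and Nogo+/+ on the right, and a bar for the mean and SD of 3 libraries. The axes start at 0, and in none of the panels do the groups overlap.

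The inward rectifiers were the class with the lowest Nogo-/- total relative to Nogo+/+. Their 4 genes summed to 93.3, 102 and 93.2 FPKM in Nogo-/- muscle, against 117, 114 and 119 FPKM in Nogo+/+ muscle, a mean of 82.5% of the Nogo+/+ sum. All 4 had a log2 fold change below 0 under each scaling tried, where 6434 of all 12353 genes did with quantile normalization. Of the 4, 1 passed the test, where 2.75% of all genes were called lower. *Kcnj11* (chr7:46093953-46100764), the pore of the ATP-sensitive potassium channel of muscle, was at 52.6, 55.5 and 57.0 FPKM in Nogo-/- muscle, against 73.2, 66.9 and 71.5 FPKM in Nogo+/+ muscle. The highest Nogo-/- library lay below the lowest Nogo+/+ library, and the fall was -0.39 (SE 0.05) with an adjusted p of 0.0055 in limma. *Kcnj11* was the fourth most abundant of the 46 genes, and its call was kept when any 1 library was left out.

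The regulatory subunits that complete this channel came from the list of other excitability genes. *Abcc9* was at 31.8, 33.1 and 30.7 FPKM in Nogo-/- muscle, against 32.6, 32.8 and 30.9 FPKM in Nogo+/+ muscle, with a difference of -0.07 (SE 0.05, adjusted p = 0.52 in limma). *Abcc8* was near 1 FPKM in every library.

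*Kcnj8*, the pore of the vascular form of the ATP-sensitive channel, was at 9.59, 10.2 and 6.79 FPKM in Nogo-/- muscle, against 10.6, 11.4 and 11.7 FPKM in Nogo+/+ muscle. The groups did not overlap, with Sample 6 the lowest, and the gene did not pass. *Kcnj11* made up a mean of 86.2% of the pair in both groups. *Kcnj12*, 1 of the classical inward rectifiers of the fiber, was at 18.7, 20.3 and 19.8 FPKM in Nogo-/- muscle, against 19.5, 22.0 and 20.7 FPKM in Nogo+/+ muscle, with a difference of -0.12 (SE 0.07, adjusted p = 0.37 in limma). *Kcnj2*, the other, spread widely in Nogo-/- muscle, at 12.4, 16.4 and 9.63 FPKM, against 13.7, 14.1 and 15.0 FPKM in Nogo+/+ muscle.

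Of the calcium-activated potassium channels, *Kcnma1* (chr14:23289431-24014491), the pore of the large-conductance channel, was at 3.81, 4.05 and 3.90 FPKM in Nogo-/- muscle, against 5.45, 6.41 and 5.81 FPKM in Nogo+/+ muscle. The groups stood well apart, and the fall was -0.52 (SE 0.08) with an adjusted p of 0.0126 in limma. It no longer passed without Sample 2 or without Sample 3 (adjusted p = 0.0628 and 0.0605 in limma). *Kcnma1* has 38 annotated transcripts, over which the authors' FPKM was estimated, and its exons overlap a gene on the other strand. *Kcnn1* and *Kcnn2*, of the small-conductance family, had means of 9.71 and 1.74 FPKM in Nogo-/- muscle and 9.79 and 1.67 FPKM in Nogo+/+ muscle and did not pass. The two-pore genes *Kcnk2* and *Kcnk6*, which encode background channels, lay between 0.592 and 1.09 FPKM in every library, with differences of 0.12 (SE 0.13, adjusted p = 0.65 in limma) and -0.02 (SE 0.14, adjusted p = 0.97 in limma).

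*Kcnma1* and *Kcnj8* are also known from the smooth muscle and pericytes of vessels, so markers of those cells are given beside them. The 8 smooth muscle and pericyte markers summed to 218, 218 and 174 FPKM in Nogo-/- muscle, against 246, 240 and 248 FPKM in Nogo+/+ muscle. Of these, *Acta2* and *Pdgfrb* fell, where 2.75% of all genes did, and the other 6 did not pass. Of the 8, 7 had an unadjusted p under 0.05 in limma, as did 20.5% of all genes. The median log2 fold change of the 8 was -0.31. In the 6 fits that left out 1 library, *Acta2* passed in 2 and *Pdgfrb* in 1. The 8 endothelial markers summed to 118, 107 and 96.8 FPKM in Nogo-/- muscle, against 161, 143 and 145 FPKM in Nogo+/+ muscle. Of these, 6 fell, where 2.75% of all genes did, and none was at 0 in any library. *Kdr* and *Cldn5* passed whichever library was left out, and the other 4 in 1 or 2 of the 6 fits. Their part in the channel results was not tested, and in such bulk tissue fewer cells of a type and less RNA per cell cannot be told apart.

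None of the 5 sodium channel genes passed in limma, and 1 had an unadjusted p under 0.05. *Scn4b*, a beta subunit, was at 117, 131 and 122 FPKM in Nogo-/- muscle, against 110, 117 and 123 FPKM in Nogo+/+ muscle, with a difference of 0.05 (SE 0.05, adjusted p = 0.66 in limma). *Scn4a*, the pore of the adult muscle channel that carries the upstroke of the action potential, was at 50.9, 61.7 and 59.3 FPKM in Nogo-/- muscle, against 63.6, 61.3 and 62.8 FPKM in Nogo+/+ muscle. Its groups overlapped, and the difference of -0.17 (SE 0.07) did not pass (adjusted p = 0.23 in limma).

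*Scn7a*, which encodes a sodium sensor rather than a voltage-gated channel, rested on 128 to 215 fragments in Nogo-/- muscle and 149 to 186 in Nogo+/+ muscle. *Scn3b*, a beta subunit with the lowest mean of the 46 genes, lay between 0.521 and 1.02 FPKM.

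The CLC genes encode the plasma membrane chloride channels and the exchangers of endosomes and lysosomes. None of 6 passed in limma and 2 had an unadjusted p under 0.05, while the groups did not overlap for 4 of them, each higher in Nogo-/- muscle, where 15.9% of all genes did the same. *Clcn1*, the channel that carries the resting chloride conductance of the fiber, was at 69.7, 81.2 and 67.1 FPKM in Nogo-/- muscle, against 66.0, 62.2 and 62.3 FPKM in Nogo+/+ muscle. Its lowest Nogo-/- value lay just above the highest Nogo+/+ value, and the difference of 0.15 (SE 0.07) did not pass (adjusted p = 0.26 in limma). *Clcn2*, an inwardly rectifying chloride channel, was at 2.76, 2.40 and 1.97 FPKM in Nogo-/- muscle, against 1.65, 1.51 and 1.46 FPKM in Nogo+/+ muscle, and its exons overlap those of *Polr2h* and *Fam131a*, which lie on the other strand and are in the table.

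*Clcn7*, the chloride and proton exchanger of lysosomes, was at 8.80, 9.68 and 8.49 FPKM in Nogo-/- muscle, against 7.20, 7.36 and 7.43 FPKM in Nogo+/+ muscle. *Clcn4* was at 16.8, 18.0 and 16.7 FPKM in Nogo-/- muscle, against 17.6, 16.9 and 17.0 FPKM in Nogo+/+ muscle, with a difference of -0.05 (SE 0.06, adjusted p = 0.70 in limma). *Clcn3* had means of 13.3 ± 0.67 FPKM in Nogo-/- muscle and 12.4 ± 0.16 FPKM in Nogo+/+ muscle (SD, n = 3 each), and *Clcn6* lay at 2.03 to 2.30 FPKM in Nogo-/- muscle and 2.07 to 2.34 FPKM in Nogo+/+ muscle. The class summed to 113, 128 and 109 FPKM in Nogo-/- muscle, against 107, 102 and 103 FPKM in Nogo+/+ muscle. *Clcn1* made up 61.4, 63.6 and 61.6% of it in Nogo-/- muscle and 61.7, 60.8 and 60.4% in Nogo+/+ muscle.

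**Figure D3:**
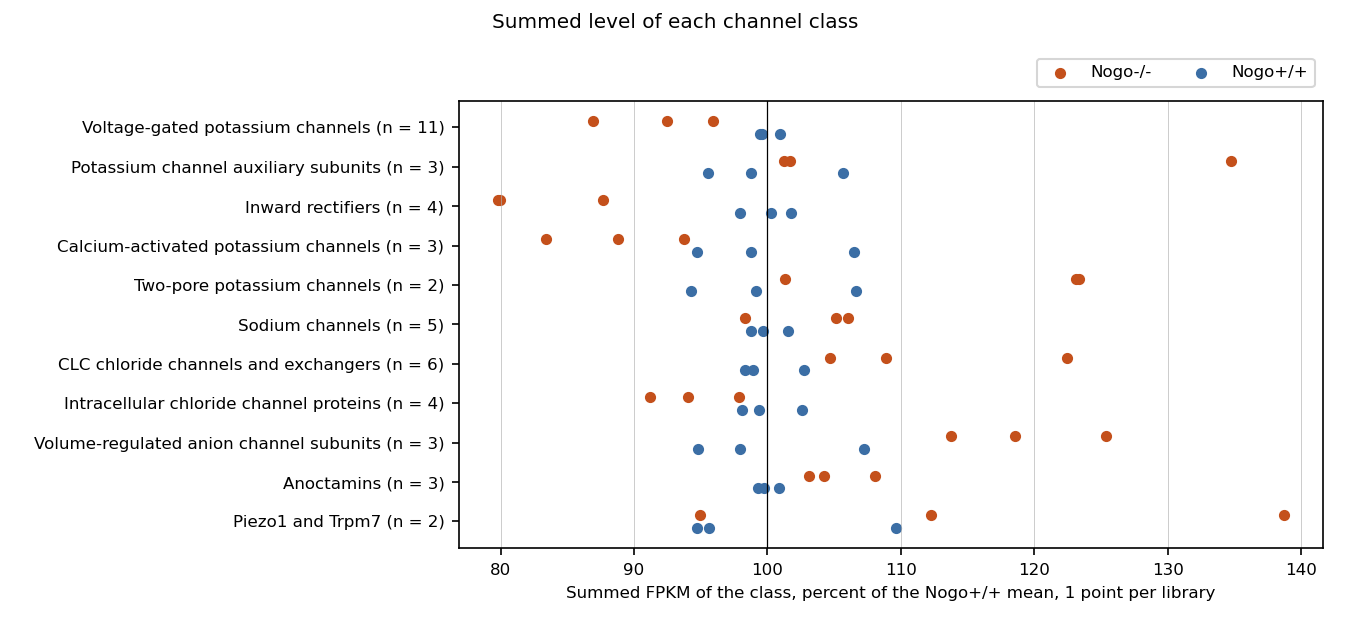
The summed FPKM of each channel class is given as a percent of its Nogo+/+ mean, with 1 point per library and Nogo-/- above Nogo+/+ in each row. Averaged over the 3 Nogo-/- libraries, the inward rectifiers lie lowest, at 82.5%, and the volume-regulated anion channel subunits lie at 119%.

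*Lrrc8a* (chr2:30237715-30263790) encodes the subunit that every volume-regulated anion channel needs, and *Lrrc8c* and *Lrrc8d* encode partners that set what the channel passes. *Lrrc8a* was at 6.63, 5.90 and 6.08 FPKM in Nogo-/- muscle, against 4.56, 4.22 and 4.61 FPKM in Nogo+/+ muscle. All 3 Nogo-/- libraries lay above the Nogo+/+ range, and the rise was 0.37 (SE 0.07) with an adjusted p of 0.0247 in limma. It passed without Sample 5 and in none of the other fits that left out 1 library, where the adjusted p was 0.0703 to 0.112. Its exons overlap a gene on the same strand, Gm28035, and another on the opposite strand.

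The partners did not pass. *Lrrc8c* was at 2.93, 3.37 and 3.18 FPKM in Nogo-/- muscle, against 3.12, 2.61 and 2.74 FPKM in Nogo+/+ muscle. *Lrrc8d* was at 2.1975, 1.84 and 1.42 FPKM in Nogo-/- muscle, against 2.37, 2.07 and 1.83 FPKM in Nogo+/+ muscle. *Lrrc8a* thus made up 56.4, 53.1 and 57.0% of the summed FPKM of the 3 genes in Nogo-/- muscle, against 45.3, 47.4 and 50.2% in Nogo+/+ muscle, with no overlap between the groups.

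**Figure D4:**
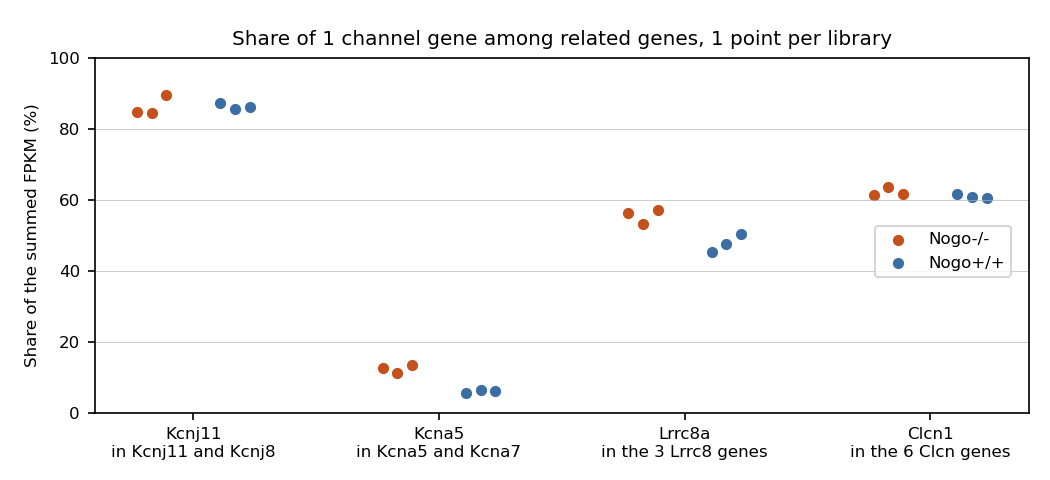
The vertical axis gives the share of 1 channel gene in the summed FPKM of a set of related genes, with 1 point per library, Nogo-/- to the left of Nogo+/+ in each pair. The shares of Kcna5 (11.1 to 13.4% against 5.57 to 6.38%) and Lrrc8a (53.1 to 57.0% against 45.3 to 50.2%) do not overlap between the groups, whereas those of Kcnj11 and Clcn1 do.

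The Clic genes encode proteins that occur both in the cytosol and in membranes, and none of 4 passed in limma, with 1 at an unadjusted p under 0.05. *Clic5*, the most abundant, was at 45.2, 43.5 and 46.7 FPKM in Nogo-/- muscle, against 48.6, 53.9 and 51.6 FPKM in Nogo+/+ muscle. The groups did not overlap, and the difference of -0.23 (SE 0.06) had an adjusted p of 0.0771 in limma. *Clic4* averaged 15.1 ± 1.34 FPKM in Nogo-/- muscle and 15.5 ± 0.23 FPKM in Nogo+/+ muscle, and *Clic1* averaged 13.0 ± 2.08 FPKM in Nogo-/- muscle and 11.7 ± 1.32 FPKM in Nogo+/+ muscle (SD, n = 3 each). *Clic3* was at 0.5004, 0.470 and 2.72 FPKM in Nogo-/- muscle, against 0.0914, 0.677 and 0.350 FPKM in Nogo+/+ muscle. Its high value is that of Sample 6, the library in which the keratinocyte markers summed to 241 FPKM, and the part of those cells in it was not tested. Without Sample 6, its adjusted p was 0.95 in limma.

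Among the anoctamins, *Ano5*, whose loss causes a muscular dystrophy in humans, was at 27.8, 29.2 and 32.0 FPKM in Nogo-/- muscle, against 29.0, 32.1 and 30.6 FPKM in Nogo+/+ muscle, with a difference of -0.09 (SE 0.08, adjusted p = 0.57 in limma). *Ano10* was at 28.8, 25.7 and 26.3 FPKM in Nogo-/- muscle, against 23.6, 21.7 and 20.4 FPKM in Nogo+/+ muscle. The groups did not overlap, and the difference of 0.24 (SE 0.07) did not pass (adjusted p = 0.11 in limma). *Ano6*, which encodes a scramblase of membrane lipids, averaged 14.1 ± 0.55 FPKM in Nogo-/- muscle and 14.8 ± 0.92 FPKM in Nogo+/+ muscle (SD, n = 3 each).

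*Trpm7*, which encodes a channel for divalent cations fused to a kinase, was at 14.8, 12.8 and 10.0 FPKM in Nogo-/- muscle, against 11.5, 9.83 and 10.0 FPKM in Nogo+/+ muscle, with a difference of 0.19 (SE 0.12, adjusted p = 0.40 in limma). *Piezo1*, which encodes a stretch-activated channel, was at 14.0, 10.5 and 9.70 FPKM in Nogo-/- muscle, against 11.3, 9.87 and 9.86 FPKM in Nogo+/+ muscle, with a difference of 0.08 (SE 0.12, adjusted p = 0.76 in limma). In both, Sample 4 was the highest of the 6 libraries. The 8 adipocyte markers were also highest there, at 927, 591 and 482 FPKM in Nogo-/- muscle, against 417, 494 and 502 FPKM in Nogo+/+ muscle. So were the 7 fibroblast markers, which summed to 637, 499 and 425 FPKM in Nogo-/- muscle, against 524, 493 and 494 FPKM in Nogo+/+ muscle. The 5 measured tendon markers summed to 121, 89.2 and 79.2 FPKM in Nogo-/- muscle, against 98.2, 104 and 99.3 FPKM in Nogo+/+ muscle, again with Sample 4 the highest. None of the markers of these lists passed in limma with all libraries. There, 5 of the adipocyte, 0 of the fibroblast and 1 of the tendon markers had an unadjusted p under 0.05, as did 20.5% of all genes. The median log2 fold change of the adipocyte markers was 0.57. Without Sample 6, *Plin1*, *Cidec* and *Lep* passed, with adjusted p of 0.0193, 0.0237 and 0.0050 in limma, and the other adipocyte markers did not. No marker of these lists was at 0 in any library, and their part in the *Trpm7* and *Piezo1* values was not tested. Not every list had its highest sum in Sample 4. The 7 measured macrophage and leukocyte markers summed to 126 FPKM there and to 145 FPKM in Sample 1. The endothelial sum of Sample 4, 118 FPKM, lay below that of every Nogo+/+ library. The Schwann cell sum was highest in Sample 4, at 315.1 FPKM, but was 314.9 FPKM in Sample 3.

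The genes that work beside the channels were read from lists of pumps, calcium channels and transporters and of channel regulators. Of 31 measured genes of the first list, 1 rose and 1 fell, with a median log2 fold change of -0.02. Of all genes, 1.89% rose and 2.75% fell. *Slc12a4*, a cotransporter of potassium and chloride, rose with 10.6, 10.9 and 8.93 FPKM in Nogo-/- muscle, against 7.25, 7.19 and 6.92 FPKM in Nogo+/+ muscle (difference 0.41, SE 0.07, adjusted p = 0.0206 in limma). It passed in 1 of the 6 fits that left out 1 library.

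Of 24 measured regulators and anchors, 2 rose and 1 fell, where 1.89% of all genes rose and 2.75% fell. *Ank1*, a gene of the ankyrins that tie membrane proteins to the cytoskeleton, was at 215, 222 and 226 FPKM in Nogo-/- muscle, against 296, 308 and 313 FPKM in Nogo+/+ muscle, a fall of -0.52 (SE 0.04). Its relative *Ank2* rose, at 22.8, 19.8 and 24.2 FPKM in Nogo-/- muscle, against 16.7, 16.3 and 14.4 FPKM in Nogo+/+ muscle. *Klf15*, which encodes a transcription factor, rose to 18.4, 20.4 and 18.9 FPKM in Nogo-/- muscle, against 15.2, 13.4 and 13.8 FPKM in Nogo+/+ muscle. With 1 library left out, *Ank1* passed in all 6 fits, *Klf15* in 2 and *Ank2* in 1. None of the 11 measured genes of the response to denervation, of the 10 slow fiber markers or of the 10 fast fiber markers passed in limma. Of them, 3, 3 and 1 had an unadjusted p under 0.05, as did 20.5% of all genes. Quantile normalization gives genes of the same rank the same value in every library. It left *Myh4* with no fitted difference, though its FPKM was 2635, 2658 and 2949 in Nogo-/- muscle, against 2901, 3057 and 3039 in Nogo+/+ muscle. For the most abundant fiber markers the test could thus not show a difference.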

How the data were processed

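Libraries of polyadenylated RNA from 3 Nogo-/- and 3 Nogo+/+ muscles were prepared with a stranded kit and sequenced by Illumina. Per the submitters' processing notes and the study's methods, the authors used CASAVA 1.8.2, cutadapt 1.4.2, STAR 2.6.1 with GRCm38.p6 and Cufflinks 2.2.1, and deposited a table of FPKM that keeps genes reaching 1 FPKM in at least 1 library. Such a threshold leaves out genes that are low everywhere. The table also has 6 columns of normalized log2 values, which were not used. Column groups follow the sample headings of the study's own table. FPKM were quantile-normalized over 12353 genes and tested as log2(FPKM + 1) in limma 3.58.1 (R 4.3.3, trend, no covariates, two-sided, Benjamini-Hochberg, threshold 0.05). Fold changes on this scale understate those of low genes. FPKM are not counts, so no count test was run.

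Symbols and coordinates came from GENCODE M21 (12347 of 12353 identifiers matched), and the rule gave 46 genes. Depth was the value at which the FPKM of genes with 1 transcript became whole fragments (94.3 to 95.7% within 0.1 of a whole number, 20.0% by chance). In simulated data for the Nogo-/- against Nogo+/+ comparison (12353 genes), 95.5% of the genes given a log2 change of 0.5 were recovered, as were 100.0% of those given 1 or 2, with 7 calls outside the changed genes and 1 when nothing was changed. The simulated noise was normal with a spread set by level alone, no library stood apart, and genes of low level were not among those changed. These shares therefore do not hold for genes of low level or with a wider spread. Named in full were the genes past the threshold, the 12 most abundant, and the 2 most abundant of a class not otherwise named, and those with an unadjusted p under 0.05 and no overlap were given in FPKM. Values of some genes are not reported here, although counts and class sums include them. Members and lists were chosen with earlier results of these data known. Alternatives were another pseudocount, a filter on mean FPKM, 2 other scalings, limma without a trend or with sample weights, a fold change over 1.3, and leaving out each library. Python 3.11.15, NumPy 2.4.6, pandas 2.3.3 and matplotlib 3.10.9 were used.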

Additional observations from a re-analysis of the deposited data

How the results depend on the processing

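The 5 channel genes called became 4 in limma without a trend, with median ratio scaling and without quantile normalization. They became 3 (1 higher, 2 lower) when a fold change over 1.3 was also asked for, and stayed at 5 with a pseudocount of 0.1, with a mean FPKM of at least 1 and with sample weights. The fold change was taken on the scale of log2(FPKM + 1), where *Lrrc8a* at 0.37 fell short of it, although the ratio of its mean FPKM was 1.39. With 1 library left out, 2 to 4 channel genes passed, 1 to 2 of them higher and 1 to 2 lower in Nogo-/- muscle, and 188 to 434 genes of the table. *Kcna5* and *Kcnj11* passed in all 6 of these fits, *Kcnma1* in 4 and *Lrrc8a* in 1. Without Sample 6, which stood apart in skin markers, *Kcna5*, *Kcnj11* and *Kcnma1* passed. Over all genes 573 passed, of which 40.7% were higher, against 536 and 56.3% without quantile normalization, while the median of all genes moved to 0.03 on the log2 scale. With quantile-normalized values, the log2 ratio of summed FPKM was -0.13 for the Clic genes (-0.08 on the FPKM as deposited), 0.02 for the anoctamins (0.07) and -0.0006 for the sodium channels (0.045), which thus lost its sign. The causes of these changes were not tested. No paired analysis was possible because no column could be tied to a replicate number of the labels. At a low FPKM the number of fragments varied with transcript length. *Kcne1l* (1543 bases) rested on 21 to 28 fragments per library, and *Scn7a* (7338 bases, 1.27 to 2.11 FPKM) on 128 to 215. Whether small differences in such genes could be detected at this depth was not tested.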
